A study of Mus musculus with 10 samples.

Results

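The expression of 7 SOX transcription factor genes, *Sox9*, *Sox4*, *Sox11*, *Sox10*, *Sox17*, *Sox18* and *Sox6*, was followed through single-cell RNA sequencing of the embryonic mouse pancreas. The genes were chosen by symbol. They are 7 of the 27716 genes listed in every count matrix used, and 7 of the 19 *Sox* genes listed there. SOX proteins bind DNA through a high-mobility-group (HMG) box, and members whose boxes are most alike form lettered groups that often act in the same cells. The members cover the SoxE group (*Sox9*, *Sox10*), the SoxC group (*Sox4*, *Sox11*), the SoxF group (*Sox17*, *Sox18*) and the SoxD group (*Sox6*). In the pancreas *Sox9* is known for maintaining the epithelial progenitor pool and later the ducts, and the SoxC factors for acting in endocrine differentiation downstream of and alongside *Neurog3*. *Sox10* is the factor of neural crest derivatives and Schwann cells, the SoxF factors act in endothelium, and *Sox6* is known from cartilage, muscle and red blood cell formation.

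Pancreata were pooled, dissociated and loaded as single cells, so that each library is a pool of embryos and the number of libraries is the number of replicates. Swiss Webster embryos gave 4 libraries made with the version 1 kit from all live cells (1 litter at E14.5 as batch 1, and batch 2 with a library at each of the 3 stages). They also gave 3 libraries made with the version 2 kit after removal of CD140a+ (Pdgfra+) mesenchymal cells by sorting (E12.5, E14.5 and E17.5, the last run in 2 wells that were summed). The other library came from E14.5 Fev-Cre; ROSA26mTmG embryos, in which Cre driven from *Fev* sequences turns a membrane TdTomato reporter into a membrane GFP reporter, and held live GFP+ cells together with TdTomato+ cells, for which no removal of CD140a+ cells is described. Pancreata of the 3 stages were dissociated for different times, so stage and dissociation time cannot be told apart. Among the 7 Swiss Webster libraries neither can the kit, the sequencer and the sort. The paper states that the Fev-Cre and reporter mice were kept on an inbred background other than Swiss Webster. The Fev-Cre library therefore differs from those 7 libraries in strain as well.

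The 3' tag counts keep *Sox* genes apart only where their transcripts differ, so the start of the HMG box is shown to let the members be compared. Each line gives 60 bases of coding sequence beginning at the codons for the shared start of the box, read 5′ to 3′ on the coding strand from GENCODE M21 transcripts on GRCm38 (mm10), with capitals at the bases that differ from *Sox9*.
Sox9: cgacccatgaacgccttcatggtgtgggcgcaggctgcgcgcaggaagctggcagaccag
Sox10: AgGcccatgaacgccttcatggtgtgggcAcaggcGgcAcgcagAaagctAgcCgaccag
Sox4: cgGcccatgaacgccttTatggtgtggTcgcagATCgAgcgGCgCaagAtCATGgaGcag
Sox11: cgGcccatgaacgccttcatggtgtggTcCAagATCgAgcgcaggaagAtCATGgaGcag
Sox17: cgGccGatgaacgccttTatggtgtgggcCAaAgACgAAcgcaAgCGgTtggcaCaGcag
Sox18: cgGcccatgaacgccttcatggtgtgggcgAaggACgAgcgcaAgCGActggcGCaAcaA
Sox6: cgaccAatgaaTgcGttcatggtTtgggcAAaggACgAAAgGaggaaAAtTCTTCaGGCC

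These stretches lie at chr11:112782903-112782962 on the plus strand in exon 1 of *Sox9* and, all on the minus strand, at chr15:79163342-79163401 in exon 2 of *Sox10*, chr13:28952782-28952841 in the single exon of *Sox4*, chr12:27342199-27342258 in the single exon of *Sox11*, chr1:4493140-4493199 in exon 4 of *Sox17*, chr2:181671222-181671281 in exon 1 of *Sox18* and chr7:115489703-115489762 in exon 15 of *Sox6*. From *Sox9*, *Sox10* differed at 8 of the 60 bases, *Sox18* at 13, *Sox11* at 14, *Sox4* and *Sox17* at 16 each and *Sox6* at 23. Over 210 bases of the box, the 3 pairs of 1 group were 83.3 to 91.0% identical, with *Sox4* and *Sox11* the closest, and the 18 pairs of different groups 55.7 to 76.7%. The longest run of identical bases between any 2 of the transcripts was 48 (*Sox4* and *Sox11*), and within the last 1000 bases, where 3′ tags fall, it was at most 15. No member overlapped another gene on its own strand in that annotation.

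The libraries held 15671934 to 196793242 UMIs (unique molecular identifiers, 1 per captured RNA molecule), with a median of 3084 to 9850 per barcode, and 57982 cells were kept in all. Clusters were named from marker genes with all *Sox* genes held out, which gave 43655 cells in 19 classes. The others were unnamed (7843 cells), marked as doublets (4919) or in mixed clusters (1565). Of the 19 classes, other mesenchymal (11650 cells) was named by its compartment only. It held the mesenchymal clusters given neither a mesothelial nor a vascular smooth muscle name. In the version 2 E12.5 library 1956 epithelial cells stayed unnamed, beside 653 named ductal-like. Unnamed endocrine cells numbered 1051 in the Fev-Cre library (beside 279 Fev+-like), 700 in version 2 E14.5 (246) and 532 in version 2 E17.5 (98). There were 380 in version 2 E12.5, which had no Fev+-like class, 145 in version 1 E14.5 batch 2 and 40 in version 1 E12.5. Clusters that scored nearly alike for several endocrine classes were left unnamed, and unnamed cells enter no step along the endocrine path. Every endothelial-like (9 of 9), acinar-like (9 of 9) and erythroid-like (7 of 7) marker was highest in its own class in all libraries holding that class, as were 6 of 9 glia-like markers but only 5 of 10 ductal-like, 4 of 9 beta-like and 3 of 7 Fev+-like markers. *Ins1* was highest in beta-like cells in all 7 libraries holding them, but ran from 559.9 to 153600 CPM. Haemoglobin transcripts took 0.0128 to 60.9% of a library's UMIs, and libraries shared 19 to 156 cell barcodes pairwise, at most 1.79% of the smaller one. Levels are counts per 1e+06 UMIs (CPM) of a class within a library, taken over the 117 units of class and library with at least 20 cells, and are compared within a gene and never between genes. Differences are log2 fold changes from edgeR's quasi-likelihood test on the summed UMIs with the library as a block, with p adjusted over all genes tested. A gene was called where the adjusted p was under 0.05 and the change at least 2-fold.

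The members differed in where in the organ they were highest. *Sox9* was highest in ductal-like cells (465 ± 69.9 CPM, SD, n = 8 libraries), *Sox4* in Ngn3+-like endocrine progenitors (1286 ± 521, n = 8), *Sox10* in glia-like cells (211 ± 47.3, n = 5) and *Sox17* and *Sox18* in endothelial-like cells (209 ± 94.1 and 96.9 ± 76.0, n = 8). *Sox11* was highest in the neuron-like cells of 2 libraries (223 and 403 CPM) and next in glia-like cells (124 ± 94.6, n = 5). *Sox6* had its highest mean in mesenchymal cells given neither a mesothelial nor a vascular smooth muscle (VSM) name (46.8 ± 17.1, n = 8), with VSM-like, ductal-like and mesothelial-like cells at 45.0, 40.4 and 38.0 CPM. Between neighbours in each gene's order of classes, the ranges over libraries stayed apart in 5 of 126 pairs: ductal-like over acinar-like and delta-like over Ngn3+-like cells for *Sox9*, glia-like over neuron-like cells for *Sox10*, endothelial-like over acinar-like cells for *Sox17* and endothelial-like over VSM-like cells for *Sox18*. Many of the other pairs, among them most for *Sox17* and *Sox18*, joined classes at or near 0 CPM and had little room to separate.

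**Figure D1:**
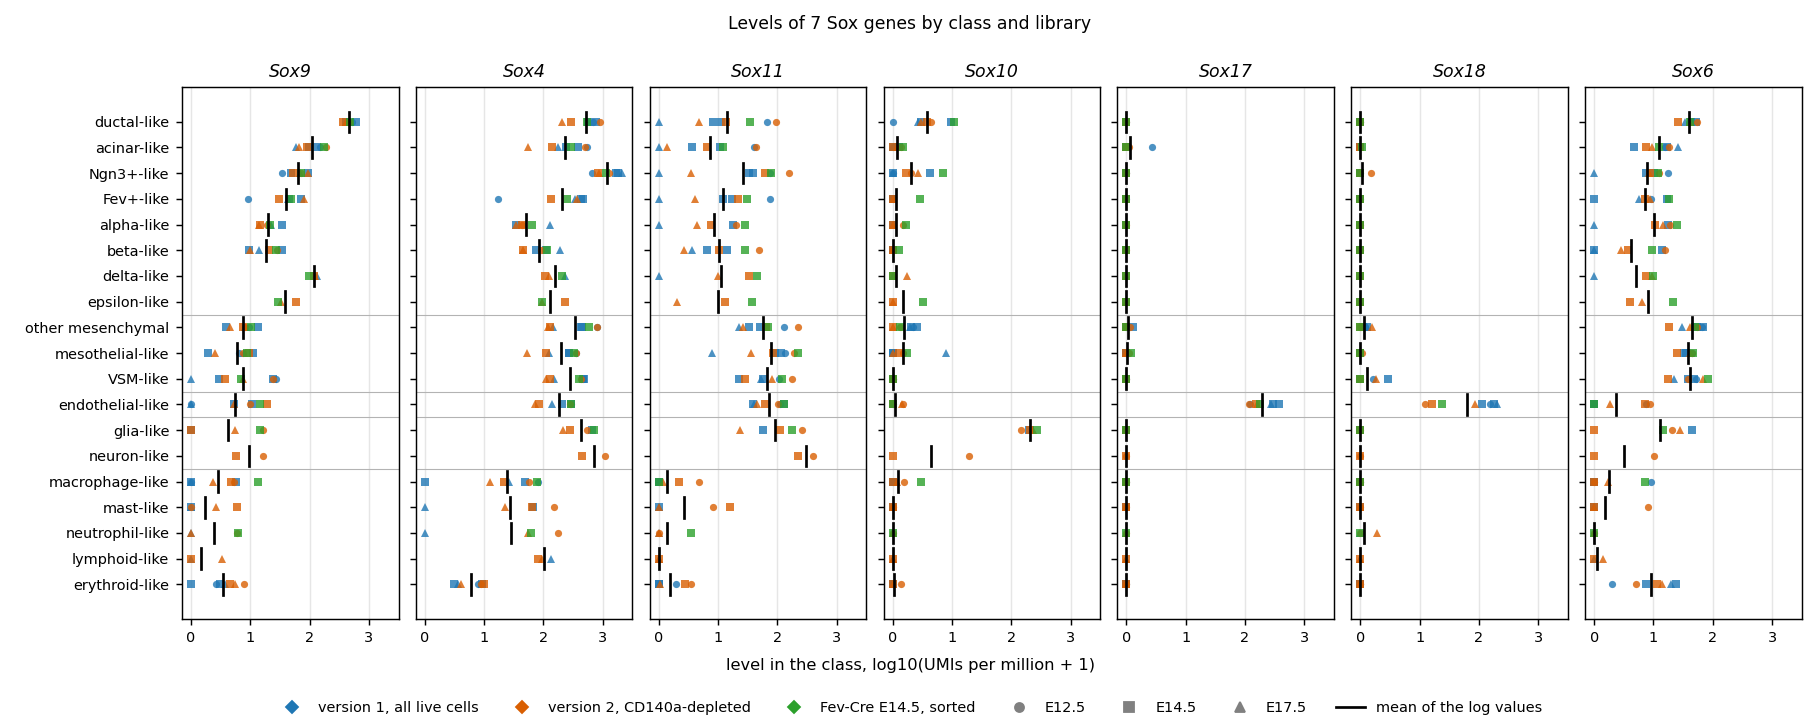
Levels of the 7 *Sox* genes in each class as log10(CPM + 1), 1 point per library, coloured by kit and shaped by stage, with a black mark at the mean of the log values. *Sox17* and *Sox18* lie in endothelial-like cells at 11.5 CPM or more and at or near 0 elsewhere, *Sox10* stands at 145 to 273 CPM in glia-like cells, and *Sox4*, *Sox11* and *Sox6* spread over many classes.

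*Sox9* was detected throughout the pancreatic epithelium and was highest in the ductal-like cells. Its level there was 369 CPM in the lowest library, 469 in the median and 595 in the highest, against 57.7, 116 and 191 CPM in acinar-like cells, so that every ductal-like value lay above every acinar-like one. After thinning each cell to 2000 (version 1) or 3000 (version 2) UMIs, 64.7% of ductal-like cells in the median library had a *Sox9* UMI (range 48.4 to 69.9%), against 80.4% with all UMIs. In macrophage-like cells, a class that should lack the gene, the thinned median was 0.284%. Median UMIs per cell before thinning were 3997 to 12353 in ductal-like cells and 3574 to 9905 in macrophage-like cells.

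Between ductal-like and acinar-like cells, 12.7% of all genes tested were called (7.65% higher and 5.08% lower in ductal-like cells), and of the 4 members that could be tested 2 were called, both higher. *Sox9* was higher by 1.56 on the log2 scale (SE 0.136, adjusted p = 7.61e-06, higher in 8 of 8 libraries). *Sox6* was higher by 1.41 (SE 0.189, adjusted p = 0.000146), with 24.76 to 52.2 CPM in ductal-like and 3.71 to 24.74 CPM in acinar-like cells, ranges that almost touched. *Sox4* and *Sox11* had differences of 0.69 (SE 0.11, adjusted p = 0.000546, higher in 8 of 8 libraries) and 1.00 (SE 0.218, adjusted p = 0.00455), both under the 2-fold threshold. With library totals in place of TMM scaling the median over all genes moved from 0.01 to 0.45 and the genes called from 796 higher and 529 lower to 1784 and 291. *Sox4* (1.12) and *Sox11* (1.38) were then called higher as well. *Sox11* was also called with DESeq2 (1.06), with Leiden resolution 2 (1.08) and without the version 1 E12.5, version 1 E14.5 batch 2, version 2 E12.5 or version 2 E14.5 library (1.033 to 1.097).

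Other genes of the ductal and progenitor programme were tested from a list of 13, chosen with earlier results of these data known. Of these, 5 were higher in ductal-like cells, 1 was lower and 7 were not called, with a median difference of 0.87 against 0.01 over all genes. Among those higher, *Glis3*, a zinc finger factor of ducts and beta cells, was higher by 2.26, *Fgfr2*, the receptor for mesenchymal Fgf10, by 2.56, *Onecut1*, which acts upstream of *Neurog3*, by 1.20 and *Notch2* by 1.90. *Jag1*, a Notch ligand, was lower by -1.44. *Sox5*, the SoxD partner of *Sox6*, was higher by 2.58 (SE 0.321, adjusted p = 8.90e-05) and was the only one of the 3 tested *Sox* genes outside the 7 to be called.

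From ductal-like through Ngn3+-like and Fev+-like to alpha-like and beta-like cells the mean *Sox9* level stood lower at each step, though the middle step was not called. In Ngn3+-like cells, which carry *Neurog3*, the factor that starts endocrine differentiation, it ran from 33.1 through a median of 69.6 to 94.6 CPM, below every ductal-like library. Fev+-like cells, an endocrine intermediate that follows, had 8.14 to 78.4 CPM (median 44.2, n = 7). The lowest value came from the version 1 E12.5 library, where the class held 30 cells and 122975 UMIs of all genes. The other libraries had at least 29.8 CPM. Alpha-like and beta-like cells had means of 20.1 (n = 6) and 19.5 CPM (n = 7). The fall from ductal-like to Ngn3+-like cells was -2.80 (SE 0.144, adjusted p = 2.63e-09, lower in 8 of 8 libraries). The difference between Fev+-like and Ngn3+-like cells was -0.64 (SE 0.158, adjusted p = 0.00611, lower in 7 of 7) and stayed under the 2-fold threshold, and with finer clusters (Leiden resolution 2) it was 0.09. Hormone+-like cells were alpha-like and beta-like cells summed, except in the version 1 E14.5 batch 2 library, which gave beta-like cells only. They were lower than Fev+-like cells by -1.23 (SE 0.229, adjusted p = 0.00284, lower in 6 of 6). Without the version 2 E17.5 library that last difference was -0.91, under the 2-fold threshold.

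Delta-like cells, which make somatostatin, had a *Sox9* level above that of the other hormone classes. The 4 libraries with enough delta-like cells gave 132 (version 1 E17.5), 117 (version 2 E14.5), 122 (version 2 E17.5) and 98.2 CPM (Fev-Cre E14.5), within the range of acinar-like cells and above every Ngn3+-like value. The paired difference from Ngn3+-like cells was positive in 4 of 4 libraries (exact sign-flip p = 0.125, the smallest this design allows). *Sox9* was not called between beta-like and alpha-like cells (difference 0.37, 95% interval -0.03 to 0.79, adjusted p = 0.219), and neither was *Sox11* (0.34, 95% interval -0.28 to 0.95, adjusted p = 0.49).

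*Sox4* and *Sox11*, which act redundantly in many progenitors, peaked in the epithelium in Ngn3+-like cells and were lower on either side. *Sox4* had 649, 1198 and 2107 CPM in the lowest, median and highest Ngn3+-like library, against 201, 569 and 901 CPM in ductal-like cells. It was higher in 7 of 8 libraries and the ranges overlapped, the version 1 E12.5 library giving 649 CPM in Ngn3+-like and 691 CPM in ductal-like cells. After thinning, 86.6% of Ngn3+-like cells in the median library had a *Sox4* UMI (range 60.5 to 96%; 93.8% with all UMIs), against 6.21% of macrophage-like cells. *Sox11* ran from 0 through 49.0 to 157 CPM in Ngn3+-like cells and from 0 through 11.54 to 94.99 CPM in ductal-like cells.

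All 4 members tested between Ngn3+-like and ductal-like cells were called, against 21.6% of all genes (9.48% higher, 12.1% lower). *Sox4* was higher by 1.17 (SE 0.188, adjusted p = 0.000145) and *Sox11* by 1.15 (SE 0.277, adjusted p = 0.0036, higher in 6 of 8 libraries). The *Sox11* call was lost without the version 2 E14.5 library (0.84) and without the library block (adjusted p = 0.275). *Sox6* was lower by -2.11 (SE 0.201, adjusted p = 1.18e-06), with 0 to 16.5 CPM in Ngn3+-like cells and every library below its own ductal-like value. *Sox5* was lower by -2.03.

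Of the 8 genes linked to SoxC factors in differentiating neural and endocrine cells, 6 were higher in Ngn3+-like cells and 2 were not called, with a median difference of 5.23 against -0.03 over all genes. They were the neuronal tubulin *Tubb3* (6.93), the zinc finger factor *Insm1* (6.30), *Neurod1* (7.10), *Nkx2-2* (3.04), *Rfx6* (5.34) and *Isl1* (5.11). Of the 11 duct and progenitor factors tested in the same cells, 7 were lower and 1 was higher. *Hes1*, the Notch target that holds *Neurog3* down, fell by 3.26 and *Onecut1* by 4.37, *Nr5a2*, a nuclear receptor of acinar and progenitor cells, fell by 3.45, and *Yap1*, the Hippo effector, by 2.87. *Foxa2*, a pioneer factor of the endoderm, rose by 1.18. The SoxC-linked list went the other way outside the epithelium, in comparisons where *Sox11* was called higher, and none of its genes was higher there. In mesenchymal against epithelial cells 7 of 8 tested were lower (median -5.49). In endothelial-like against other cells 6 of 7 were lower (-3.62), and in glia-like against other cells 5 of 8 (-3.15). The epithelial cells and the other cells of these comparisons include the endocrine classes. The list was chosen with earlier results of these data known, and no link between its genes and *Sox4* or *Sox11* was tested.

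*Sox4* then fell in Fev+-like cells, to 16.3, 344 and 463 CPM in the lowest, median and highest of 7 libraries, all below every Ngn3+-like library. The difference was -2.35 (SE 0.233, adjusted p = 9.10e-06, lower in 7 of 7). *Sox11* fell by 1.34 (SE 0.252, adjusted p = 0.00125, lower in 5 of 7). Its call was lost without the library block (adjusted p = 0.202). These were the 2 called of the 3 members tested, in a comparison where 11.6% of all genes were called (5.63% higher, 5.99% lower). Of the 7 SoxC-linked genes tested, *Tead2*, a Hippo pathway DNA-binding factor and SoxC target (-3.70), *Tubb3* (-1.09) and *Insm1* (-1.05) were lower too and none was higher, and *Hes1* was lower by -2.63.

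*Sox4* was lower again in hormone+-like cells, with 41.8 to 171 CPM (median 70.3, n = 6) against 132 to 463 CPM in the Fev+-like cells of the same libraries. The groups overlapped between libraries, but every library showed the same direction (difference -1.70, SE 0.22, adjusted p = 0.000399, lower in 6 of 6). The 2 members tested, *Sox9* and *Sox4*, were both called lower, in a comparison where 7.28% of genes were called (4.82% higher, 2.46% lower). *Neurod1* (-1.12) and *Rfx6* (-1.24) were the SoxC-linked genes called, both lower, of 7 tested. With library totals the median over all genes moved to -0.36 and the genes called from 312 higher and 159 lower to 181 and 454, with no change in the calls of the 2 members.

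**Figure D2:**
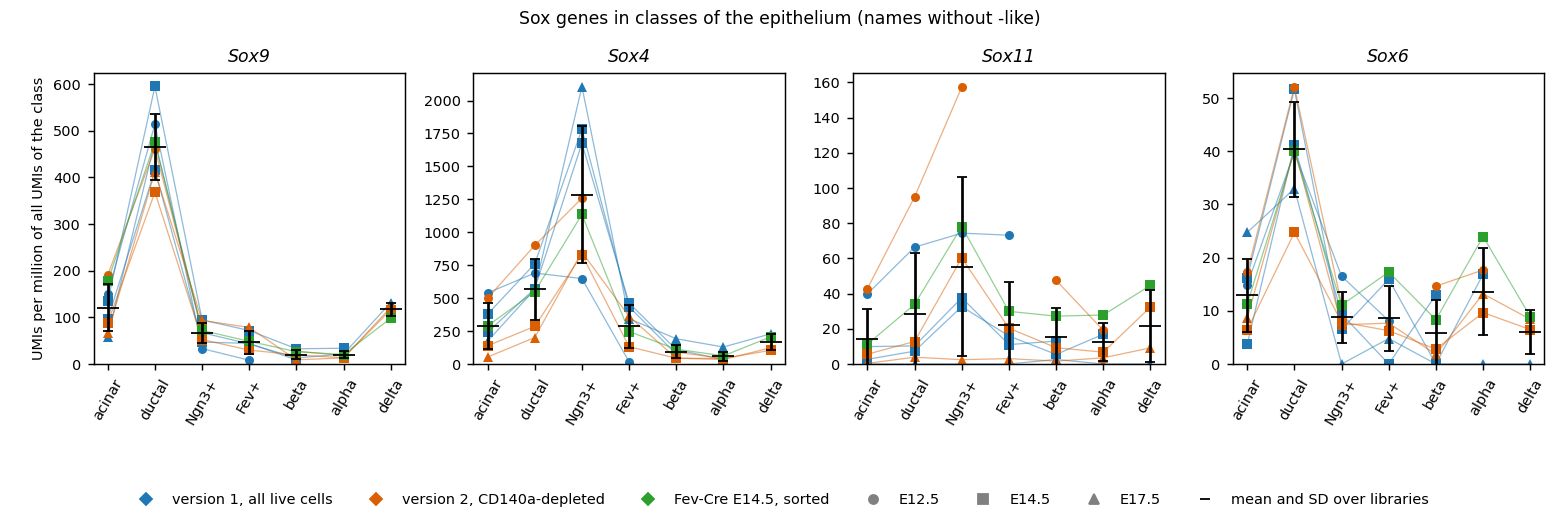
Levels (CPM) of *Sox9*, *Sox4*, *Sox11* and *Sox6* in the epithelial classes, with a point and a thin line for each library, coloured by kit, and the mean ± SD in black. *Sox9* steps down from 465 CPM in ductal-like cells, and *Sox4* peaks at 1286 CPM in Ngn3+-like cells.

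Among hormone cells, *Sox4* was 109, 191, 89.7, 43.6, 44.4 and 112 CPM in the beta-like cells of 6 libraries and 33.8, 129, 42.3, 42.4, 33.7 and 62.2 CPM in their alpha-like cells, in the same order. Beta-like cells were higher in 6 of 6 libraries, by 0.94 (SE 0.152, adjusted p = 0.0016), just under the 2-fold threshold. Without the version 2 E14.5 library, where the pair was almost equal, it was 1.07 and called. *Sox6* went the other way, with 0 to 14.6 CPM in beta-like and 0 to 24.0 CPM in alpha-like cells, lower in 5 libraries and at 0 in both classes of the version 1 E17.5 library. It was lower in beta-like cells by -1.51 (SE 0.314, adjusted p = 0.00807), on 62 and 207 UMIs in all, and was not called without the library block (adjusted p = 0.107). It was 1 of the 4 members tested to be called, beside 6.54% of all genes (3.37% higher, 3.17% lower). Of 7 duct and progenitor factors 1 was called and of 8 SoxC-linked genes 3, with none lower. *Glis3* (2.25), *Tubb3* (2.02), *Insm1* (1.00) and *Dcx* (1.45), a microtubule protein of migrating neurons, were called higher in beta-like cells. With library totals the median over all genes moved from -0.02 to -0.28 and the genes called from 280 higher and 263 lower to 176 and 427, and no member's call changed.

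Cells detected with *Sox9* and *Sox4* together made up 4.35 to 15.7% of the thinned Ngn3+-like cells per library, and those with *Sox4* and *Sox11* together 0 to 29.6%. The highest share for *Sox4* and *Sox11* was in the version 2 E12.5 library. Such shares count cells with a UMI of each gene, not cells expressing it.

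Among the named classes *Sox10* was highest in glia-like cells, a class carrying *Foxd3* and *Erbb3*, markers of Schwann cell precursors and peripheral glia. The class had at least 20 cells in 5 libraries, from 24 to 280 cells. *Sox10* stood there at 200 (version 1 E14.5 batch 2), 145 (version 2 E12.5), 203 (version 2 E14.5), 235 (version 2 E17.5) and 273 CPM (Fev-Cre E14.5). All other cells of those libraries together gave 0.333 to 1.88 CPM, far below every glia-like value, but these leave out the unnamed neural clusters (284 cells in the version 2 E12.5 library, beside 280 glia-like). The next class was neuron-like cells, at 18.8 CPM (26 UMIs, 9.15% of cells) in the version 2 E12.5 library and 0 in the version 2 E14.5 library. After thinning, 33.3 to 50% of glia-like cells had a *Sox10* UMI (median 41.7%; 63.9% with all UMIs), against a median of 0% of macrophage-like cells.

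The difference between glia-like and all other cells was 7.56 for *Sox10* (SE 0.304, adjusted p = 2.22e-13, higher in 5 of 5 libraries). *Sox11* was also higher, at 22.2 to 257 CPM against 5.92 to 104 CPM (1.46, SE 0.259, adjusted p = 0.000183, 5 of 5), and this call was lost without the library block (adjusted p = 0.184). *Sox9* was lower by -3.65 (SE 0.344, adjusted p = 3.96e-08). *Sox4* and *Sox6* were not called (0.48, adjusted p = 0.0824, and -0.54, adjusted p = 0.323). So 3 of the 5 members tested were called, beside 18.4% of all genes (5.04% higher, 13.3% lower). With library totals 848 genes were higher and 1339 lower in place of 642 and 1700, and no member's call changed.

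*Sox* genes outside the 7 were called here as well. *Sox2*, a factor of neural stem cells and early glia, was higher by 8.82 (SE 0.594), *Sox8*, the remaining SoxE gene, by 5.03 (SE 0.382) and *Sox5* by 3.46 (SE 0.37), and 2 more of the 5 tested were not called. Levels in glia-like cells were 99.9 ± 41.7 CPM for *Sox5*, 64.8 ± 33.9 for *Sox8* and 43.9 ± 21.9 for *Sox2* (SD, n = 5). Of the neural crest and Schwann cell list, 5 of 8 tested genes were higher and none lower, with a median of 2.50 against -0.16 over all genes. They included *Tfap2a* (7.70), an early neural crest factor, *Ednrb* (5.86), the endothelin receptor of migrating crest cells, *Zeb2* (3.24) and *Gfra3* (1.77), a co-receptor for artemin.

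*Sox17* and *Sox18* were endothelial-like throughout. *Sox17*, which acts in arterial endothelium and in early endoderm, stood in endothelial-like cells at 117 CPM in the lowest library, 166 in the median and 372 in the highest. *Sox18*, a factor of endothelial and lymphatic differentiation, stood at 11.5, 96.8 and 201 CPM. In the other cells of the 8 libraries together only 13 UMIs of *Sox17* and 14 of *Sox18* were found, at most 0.145 and 0.185 CPM in any library. These cells leave out doublets, mixed clusters and unnamed neural clusters. Ductal-like cells held no UMI of either gene in any library, and a count of 0 there allows up to 0.214 CPM in the deepest library and 9.96 CPM in the shallowest (3 counts per library). After thinning, 14.8 to 50% of endothelial-like cells had a *Sox17* UMI (median 35.7%; 51.5% with all UMIs) and 1.89 to 29.6% a *Sox18* UMI (median 22.5%; 34.3%), against none of the macrophage-like cells. Both together were seen in 0 to 15.1% of the cells of a library.

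The fitted differences from other cells were 12.10 for *Sox17* (SE 0.395, adjusted p = 2.61e-12) and 10.22 for *Sox18* (SE 0.305, adjusted p = 1.34e-12), higher in 8 of 8 libraries. With so few UMIs in the other cells, the sizes of these 2 values depend on the small count that the model adds. Their SEs belong to the fitted coefficients without that count. *Sox7*, the remaining SoxF gene, was higher by 10.18 (SE 0.377) and stood at 63.5 ± 17.4 CPM (SD, n = 8) in endothelial-like cells, with 2.04 CPM in mast-like cells as its next highest mean.

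Within the same cells, *Sox11* was higher than in other cells by 1.22 (SE 0.317, adjusted p = 0.00603, higher in 7 of 8 libraries), at 38.1, 82.2 and 130 CPM in the lowest, median and highest library. The *Sox11* call was lost without the version 2 E17.5 library (0.89) and without the library block (adjusted p = 0.291). *Sox9* (-3.88) and *Sox6* (-2.96, SE 0.41, adjusted p = 2.78e-05) were lower, and *Sox4* (-0.75, adjusted p = 0.000214, lower in 8 of 8) was not called for want of a 2-fold change. Of the 6 members tested, 3 were higher and 2 lower, beside 24.4% of all genes called (8.71% higher, 15.7% lower).

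Of 12 vessel genes tested, 9 were higher in endothelial-like cells and 1 lower, with a median of 3.04 against -0.12 over all genes. They included arterial genes, with the gap junction gene *Gja4* at 7.27, the Notch ligand *Dll4* at 3.84, its target *Hey1* at 3.09 and *Efnb2* at 2.99. They also included *Ephb4*, the venous receptor (1.83), *Flt4*, the receptor of lymphatic growth factors (7.91), and the ETS factors *Erg* (7.36) and *Fli1* (4.42). *Prox1*, the lymphatic factor that is also made in pancreatic epithelium, was lower by -1.40.

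*Sox18* levels stood apart between the 2 kinds of library. They were 110 to 201 CPM in the 4 version 1 libraries and 11.5 to 83.7 CPM in the 4 version 2 libraries, without overlap. The 110 CPM rests on 26 UMIs in 44 cells. Its 95% Poisson interval, 71.8 to 161 CPM, takes in the highest version 2 value. The version 2 E14.5 value rests on 5 UMIs in 53 cells. *Sox17* ran from 121 to 372 CPM in the version 1 libraries and from 117 to 175 CPM in the version 2 libraries. The Fev-Cre library, made with the version 2 kit but with no removal of CD140a+ cells described, gave 22.4 CPM of *Sox18*. That value rests on 5 UMIs in 23 cells, and the library differs from the others in strain and sort. Kit, sequencer and software version changed together, and among the Swiss Webster libraries the sort changed with them. These cannot be told apart here, and the difference was not tested.

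*Sox6* was spread over mesenchyme and duct. In mesenchymal cells as a whole it ran from 22.6 through 47.0 to 61.8 CPM, against 12.1, 16.3 and 26.9 CPM in epithelial cells. It was higher in mesenchymal cells of all 8 libraries, by 1.29 (SE 0.143, adjusted p = 2.59e-05), though the ranges overlapped. After thinning, 12.4% of the cells with neither mesothelial nor VSM name in the median library had a *Sox6* UMI (19.7% with all UMIs). Mesothelial-like cells, the outer lining of the organ, had 24.3 to 44.7 CPM, and their difference from the other mesenchymal cells was -0.35 (adjusted p = 0.0526, lower in 6 of 8).

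Erythroid-like cells, where *Sox6* is known to take part in silencing embryonic globins, gave a result that turns on the scaling. Relative to all UMIs, *Sox6* was 0.966 CPM in the lowest of 7 libraries, 10.7 in the median and 22.8 in the highest, against 12.4, 29.9 and 57.1 CPM in other cells, lower in 7 of 7. With TMM scaling, which sets aside the genes that differ most, it was higher by 1.51 (SE 0.363, adjusted p = 0.00102), and 1.45 with the haemoglobin genes left out. With library totals alone it was lower by -1.59 (adjusted p = 0.00236). Relative to the UMIs that are not haemoglobin, erythroid-like cells had 8.48 to 141 CPM. The median of all genes was -0.45 in this comparison, and 38% of genes were called (9.6% higher, 28.4% lower). With library totals the median was -3.71, and 146 genes were higher and 11361 lower in place of 1133 and 3354. *Sox9* (-1.63), *Sox4* (-2.70) and *Sox11* (-2.87) were lower, so that all 4 members tested were called. With library totals these were -4.79, -5.92 and -6.48, and without the library block *Sox9* was not called (adjusted p = 0.0591). All 7 genes of the erythroid list were higher, among them *Klf1* (9.55), *Gata1* (7.61), *Tal1* (7.99), the embryonic globins *Hbb-bh1* (10.28) and *Hbb-y* (6.33), and *Bcl11a* (1.73), the globin repressor that works with *Sox6*.

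*Sox11* was also higher in mesenchyme than in epithelium. Its levels were 21.8, 67.5 and 197 CPM in the lowest, median and highest mesenchymal library and 0.584, 13.2 and 71.4 CPM in epithelial cells. The ranges overlapped, but all 8 libraries were higher in mesenchyme, by 2.41 (SE 0.315, adjusted p = 8.73e-05). *Sox4* was not called (-0.29, 95% interval -0.85 to 0.28, adjusted p = 0.369, higher in 3 of 8), *Sox9* was lower by -4.71 (SE 0.232), and *Sox10* was not called (-1.21, adjusted p = 0.108) except with doublets kept (-1.32) or without the version 1 E12.5 library (-1.50). Of the 5 members tested, 2 were higher and 1 lower, beside 28.8% of all genes called (15% higher, 13.8% lower). *Sox13*, the other SoxD gene beside *Sox5*, was lower by -1.78 and *Sox8* higher by 1.01.

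Within mesenchyme none of the 4 members tested was called between mesothelial-like and other cells, where 14.3% of all genes were called (8.25% higher, 6.05% lower). With edgeR all 4 had an unadjusted p under 0.05 and 1 an adjusted p under 0.05, and DESeq2 called 0 of them at 2-fold. *Sox4* was lower in mesothelial-like cells of all 8 libraries, by -0.82 (SE 0.105, adjusted p = 7.25e-05), at 51.1, 266 and 349 CPM against 115, 439 and 756 CPM. *Sox11* had 6.92 to 218 CPM in mesothelial-like and 22.5 to 216 CPM in other mesenchymal cells (0.59, adjusted p = 0.0949, higher in 5 of 8). The difference for *Sox9* was -0.56 (adjusted p = 0.0894). *Sox5* was lower by -1.34.

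**Figure D3:**
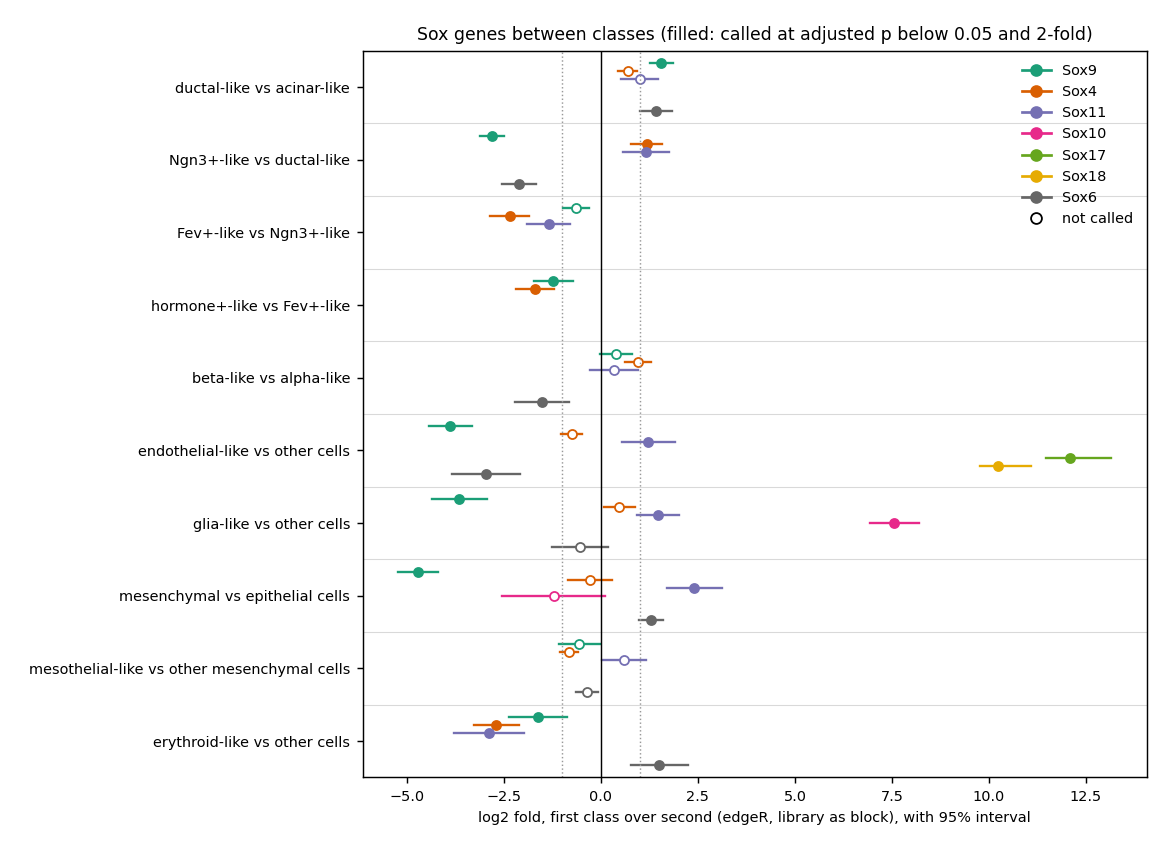
Fitted log2 fold changes of the 7 genes in each comparison of classes, with 95% intervals. Filled points were called, open points were not, and a gene with no point in a comparison had too few counts to be tested. *Sox4* goes from 1.17 in Ngn3+-like against ductal-like cells to -2.35 in Fev+-like against Ngn3+-like cells.

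Stage trends were fitted over the 7 Swiss Webster libraries with the kit version in the model, as log2 change per day of development, and were called on the adjusted p alone. *Sox9* in ductal-like cells was 515 and 462 CPM at E12.5, 595, 416 and 369 at E14.5, then 478 and 412.5 at E17.5, version 1 before version 2. The stages overlapped, with a slope of 0.01 per day (95% interval -0.12 to 0.15, adjusted p = 0.99). *Sox11* in the same cells was 66.4 and 94.99 CPM at E12.5, 7.30, 10.3 and 12.8 at E14.5, then 0 and 3.86 at E17.5, so that no stage overlapped another. It fell by 0.98 per day (SE 0.121, adjusted p = 0.000823), the version 2 E12.5 value resting on the 653 named cells. It was the only one of the 4 members called in ductal-like cells, where 3.88% of genes had a trend (2.7% rising, 1.18% falling). The slopes of *Sox4* and *Sox6* were -0.21 (adjusted p = 0.352) and -0.03 (adjusted p = 0.969). Of the 13 duct and progenitor factors, *Hes1* rose by 0.45 per day and the other 12 were not called.

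Both SoxC transcripts fell in mesenchymal cells as a whole over the same days. *Sox11* was 126 and 197 CPM at E12.5, 61.3, 44.9 and 73.6 at E14.5, then 21.8 and 38.0 at E17.5, again with no overlap between stages. *Sox4* was 715 and 486 CPM at E12.5, 421, 389 and 115 at E14.5, then 142 and 67.0 at E17.5, with overlap only between the last 2 stages. The slopes were -0.44 for *Sox11* (SE 0.0569, adjusted p = 0.00192) and -0.47 for *Sox4* (SE 0.0704, adjusted p = 0.00389) per day, and neither was called with the kit left out of the model (adjusted p = 0.0555 and 0.0511). The slopes of *Sox9* (-0.16, adjusted p = 0.522), *Sox10* (-0.17, adjusted p = 0.675) and *Sox6* (-0.06, adjusted p = 0.666) were not called. So 2 of 5 members were called, beside 11.6% of all genes (8.57% rising, 3.04% falling). With library totals 775 genes rose and 604 fell in place of 1181 and 419, and no member's call changed. *Dcx* (-0.60) and *Isl1* (-0.22) fell too, of 7 SoxC-linked genes tested. The version 2 libraries held only mesenchymal cells left after removal of CD140a+ cells, and their *Sox4* values lay below the version 1 values of the same stage at all 3 stages. The make-up of these cells differed too, with mesothelial-like cells, where *Sox4* was lower, being 354 of 3829 (E12.5), 216 of 1573 and 558 of 3269 (E14.5) and 37 of 1147 (E17.5) in version 1 and 2767 of 4214, 707 of 921 and 708 of 1052 in version 2. In the cells with neither mesothelial nor VSM name *Sox4* was 790 and 797 CPM at E12.5, 454, 421 and 128 at E14.5, then 142 and 118 at E17.5. *Sox11* in them was 127 and 223 CPM at E12.5, 49.4, 32.6 and 64.2 at E14.5, then 21.5 and 24.9 at E17.5, with no overlap between stages. No slope was fitted to these cells alone, and the cause of the lower version 2 *Sox4* values was not tested.

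Endothelial-like cells showed *Sox18* rising and *Sox4* falling. *Sox18* was 153 and 11.5 CPM at E12.5, 178, 110 and 15.5 at E14.5, then 201 and 83.7 at E17.5. Within each kit the E17.5 value was the highest. The slope was 0.38 per day (SE 0.0947, adjusted p = 0.0404), 0.12 (adjusted p = 0.688) with version 1 libraries only and 0.61 (adjusted p = 0.00173) with version 2 libraries only. The rise was not called without the version 1 E14.5 batch 2, version 2 E12.5 or version 2 E17.5 library (0.38, 0.26 and 0.13). *Sox4* was 287 and 282 CPM at E12.5, 287, 203 and 83.4 at E14.5, then 138 and 71.0 at E17.5 (slope -0.29, SE 0.0707, adjusted p = 0.036), a fall that was not called under 9 of 18 other settings, 5 of which left out 1 library (version 1 E12.5, E14.5 batch 2 or E17.5, or version 2 E12.5 or E17.5, with slopes of -0.33 to -0.15 and adjusted p = 0.0689 to 0.393). *Sox17* (0.13, adjusted p = 0.438) and *Sox11* (-0.24, adjusted p = 0.141) were not called. So 2 of 4 members were called, beside 3.03% of all genes (2.37% rising, 0.656% falling).

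**Figure D4:**
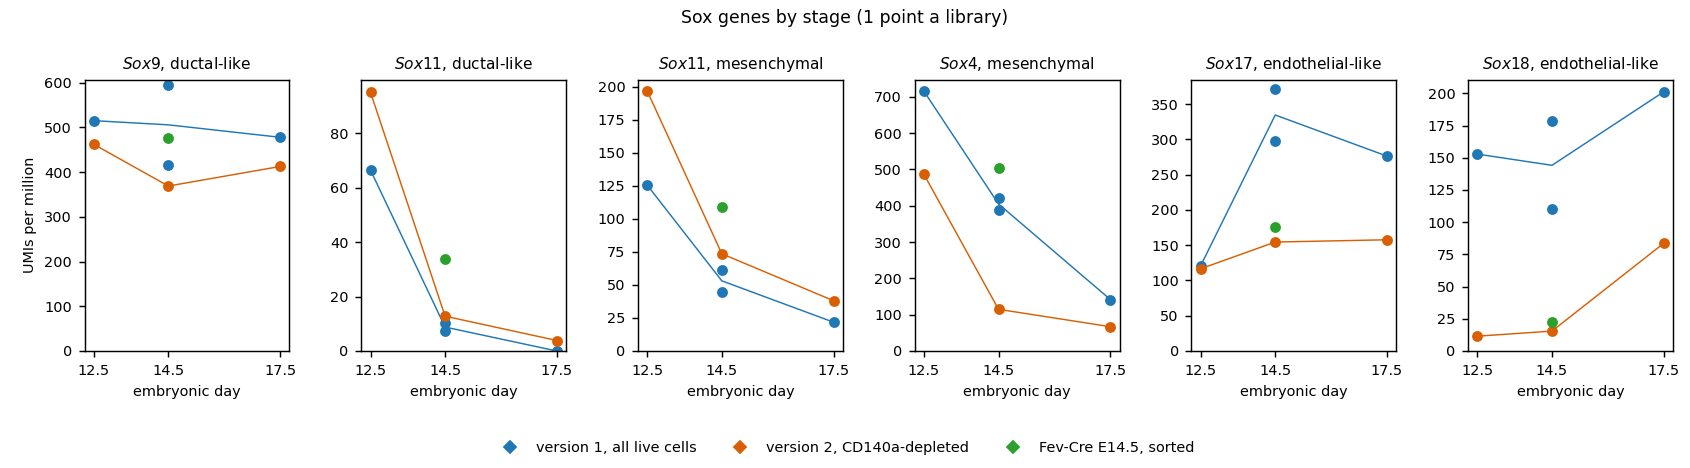
Levels (CPM) against embryonic day for members in ductal-like, mesenchymal and endothelial-like cells, 1 point per library, coloured by kit, with lines joining the stage means of a kit. *Sox11* falls from 66.4 and 94.99 CPM to 0 and 3.86 CPM in ductal-like cells while *Sox9* stays between 369 and 595 CPM.

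Across all 117 units the pattern of each member was set beside the 6648 other genes with a mean of at least 50 CPM in some class, leaving out *Sox* genes, by Pearson's r of log2(CPM + 10). Units of 1 library share its depth and units of 1 class its cell type, so that r is a description. Nearest to *Sox9* were *Cldn3* (0.92), a tight junction gene, *Grb7* (0.88) and *Misp* (0.88). Nearest to *Sox4* were *Mex3a* (0.85), *Cdk4* (0.82) and *Cbx1* (0.82). *Sox11* was most like *Shisa4* (0.81), *Myh10* (0.79), a non-muscle myosin, and *Tubb2b* (0.76). The nearest genes to *Sox10* were *Gpr17* (0.98), *Gm12688* (0.97) and *E130114P18Rik* (0.96). *Sox17* was nearest to *Ushbp1* (0.996), *Aplnr* (0.99), the apelin receptor, and *Cdh5* (0.99), VE-cadherin, which was also a naming marker of the endothelial-like class. *Sox18* was nearest to *Mall* (0.95), *Ushbp1* (0.95) and *Robo4* (0.94), and *Sox6* to *Snhg18* (0.80), *Fzd2* (0.78) and *Gpc3* (0.77).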

How the data were processed

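Single-cell RNA was measured with 10x 3′ kits, and the deposited values are whole-number UMI counts for each gene in each cell, which the authors made by aligning to mm10 with Cell Ranger 1.1 (version 1 kit) or 2.1 (version 2 kit and Fev-Cre library) per the labels and methods. Cells with at least 200 genes were kept. Variable genes for clustering were taken from genes seen in at least 3 cells. For the tests, genes with low counts were left out by edgeR's own filter. Cells of each kit and of the Fev-Cre library were clustered (Leiden resolution 1), epithelial and mesenchymal cells again within each library, and clusters were named from marker lists, with all *Sox* genes and the linked gene lists held out of the variable genes. The thresholds for naming were set after the clusters were seen. Cells carrying the markers of 2 compartments were taken as doublets and left out. No column of values lacked a sample (0). The Fev-Cre library was also aligned without reporter genes, and that matrix was not used because its cells are those of the matrix used.

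UMIs were summed per library and class (at least 20 cells) and tested with edgeR 4.0.16 in R 4.3.3 (TMM scaling, quasi-likelihood test, library as a block, Benjamini-Hochberg adjustment). DESeq2 1.42.0 was an alternative. Both wells of the version 2 E17.5 pool were summed and counted as 1 library. The libraries are pools of embryos, those of version 1 batch 2 from 1 collection, so p-values measure the spread between pools. The block was used because both classes of a comparison come from the same pool of cells. Deviations from the class means correlated at 0.174 to 0.880 between classes of 1 library and at most 0.532 between classes of different libraries. "Other cells" leaves out doublets, mixed clusters and unnamed neural clusters. Comparisons that follow each other along the endocrine path share a class, and those against all other cells share most cells, so they are not independent. The members and the gene lists were chosen with earlier results of these data known. Named were all members tested in each comparison, called genes of the lists described beside it (a few are not reported here), and for each member the 3 genes with the highest r. Poisson intervals of levels and the limit of 3 counts behind a 0 cover counting error only. Intervals of fold changes and slopes come from the edgeR fit and take in the spread between libraries. Each standard error (SE) was worked back from the fitted coefficient and the F statistic of its test. The printed fold changes include the small count that edgeR adds, and the SEs and their intervals do not.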

Additional observations from a re-analysis of the deposited data

Results flagged for a closer look

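In the comparison of Fev+-like with Ngn3+-like cells, the version 1 E12.5 library stood apart from the others for *Sox4*. Its difference on the scale of log2(CPM + 10) was -4.65, where the other 6 libraries lay between -2.58 and -1.21. Its Fev+-like level of 16.3 CPM rests on 2 UMIs in 30 cells, beside 649 CPM in the Ngn3+-like cells of the same library. It was the only outlying library among 41 groups of libraries checked. The rule used sets apart about 1 group in 20 by chance where values are normally spread, which was not checked, and the groups share libraries.

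For *Sox11* in mesothelial-like against other mesenchymal cells, every E14.5 library was higher in mesothelial-like cells (mean difference 1.15 on the same scale) and every E17.5 library lower (-0.65), a gap of 1.79. The difference between stages was not tested, and the version 1 E17.5 value of 6.92 CPM in mesothelial-like cells rests on 1 UMI.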

How the results depend on the processing

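Of 54 results on the members, 33 kept their direction and their side of the threshold under every setting in which they could be tested. The same held for 787 of 835 combinations of result and setting. Settings that left a member too few counts are not in these numbers. *Sox11* in Fev+-like against Ngn3+-like cells was tested under 11 settings, beside 15 for *Sox4*. In beta-like against alpha-like cells *Sox6* had 11, beside 14 for *Sox4*. In mesenchymal against epithelial cells *Sox10* had 11, beside 16 for *Sox4*. The replicate block here is the library. With no replicate block, the higher *Sox11* in Ngn3+-like (1.08), endothelial-like (0.79) and glia-like cells (1.52), its fall in Fev+-like cells (-1.3), the lower *Sox6* in beta-like cells (-1.45) and the lower *Sox9* in erythroid-like cells (-1.52) were not called, and no other call on a member changed. Directions turned for *Sox9* between Fev+-like and Ngn3+-like cells with Leiden resolution 2 (0.0872), for *Sox6* in erythroid-like cells with library totals (-1.59) and for slopes near 0. These were the ductal-like slopes of *Sox9* with library totals (-0.0245), with version 2 libraries only (-0.0063, a setting chosen after seeing the data, like version 1 only) and with 1 library left out (-0.0119 to 0.0424), of *Sox6* with 1 library left out (-0.1252 to 0.0903), and the mesenchymal slopes of *Sox10* with doublets kept (0.0605), version 1 libraries only (0.11) and 1 library left out (-0.49 to 0.0631), and of *Sox6* with version 2 libraries only (0.029). The *Sox18* slope in endothelial-like cells was not called with DESeq2 (0.38), library totals (0.36), the kit dropped (0.27), version 1 libraries only (0.12) or, over the range of 0.13 to 0.52, in 3 of 7 omissions of a library. The *Sox4* slope there was not called under 9 settings. The mesenchymal *Sox11* slope was -0.43 and not called with the kit dropped. *Sox4* in beta-like against alpha-like cells ran from 0.88 to 1.07 with 1 library left out. Thinned shares of cells with a UMI were 64.7% (*Sox9*), 41.7% (*Sox10*) and 35.7% (*Sox17*). The cause of these changes was not tested, other than that thinning leaves fewer UMIs and a left-out library fewer samples.

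Counts of genes called moved over 1.5 times in 13 of 92 cases with 1 library left out and in 23 of 113 under other settings. Without the filter on low counts they went from 1325 to 2339 (ductal-like against acinar-like), 1858 to 3823 (Ngn3+-like), 594 to 1980 (Fev+-like), 471 to 1210 (hormone+-like), 543 to 1145 (beta-like against alpha-like), 2760 to 5038 (endothelial-like), 3799 to 5933 (mesenchymal), 1561 to 3016 (mesothelial-like), 399 to 908 (ductal-like trend) and 157 to 332 (endothelial-like trend). With library totals they became 2075 (ductal-like against acinar-like) and 11507 from 4487 (erythroid-like). Beta-like against alpha-like gave 280 with Leiden resolution 2, 341 with no replicate block and 326 without version 2 E17.5, and glia-like 1430 from 2342 with no replicate block. The trends gave 234, 609 and 33 with the kit dropped (ductal-like, mesenchymal from 1600, endothelial-like), 70, 397 and 28 with version 1 libraries only, 532 and 84 with version 2 only (the last 2 classes), and 113, 579 and 41 without version 2 E17.5. Without version 1 E12.5 they gave 262, 878 and 88, and without version 2 E12.5 they gave 229, 807 and 99. The mesenchymal and endothelial-like trends gave 903 and 52 without version 1 E17.5, and the endothelial-like trend 264 without version 2 E14.5.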

Other observations

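A low *Sox10* signal in ductal-like cells had no test, because too few counts passed the filter. It was 3.82 ± 3.51 CPM (SD, n = 8 libraries) from 166 UMIs, against 0.183 CPM and 22 UMIs in acinar-like cells, and was higher in ductal-like cells in 7 of 8 libraries, the version 1 E12.5 library having none in either. In the Fev-Cre library ductal-like cells had 9.96 CPM (95% Poisson interval 7.86 to 12.45) and acinar-like cells 0.531 CPM (0.255 to 0.976), with intervals covering counting error only. Ngn3+-like cells of that library had 6.15 CPM (2.95 to 11.31), an interval that overlaps the ductal-like one, and epsilon-like cells 2.33 CPM (0.48 to 6.8). The ductal-like range reached from 0 to 9.96 CPM, far under the 145 CPM of the lowest glia-like library.

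Among the *Sox* genes outside the 7, *Sox12*, the third SoxC gene, was highest in mesothelial-like cells at 33.69 ± 12.03 CPM (SD, n = 8), followed by alpha-like cells at 23.9 ± 9.96 (n = 6). *Sox13* was highest in mast-like cells at 13.9 ± 9.58 CPM (n = 5), with Ngn3+-like cells at 12.6 ± 5.26 (n = 8). These neighbours overlapped.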
